A study of Mus musculus with 84 samples.

Results

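The genes described here are 35 genes of the type I interferon response, and they were followed through 7 tissues of ob/ob and WT mice on a normal or a high-fat diet. They were chosen by name as known interferon-induced genes, with earlier results of these data known but without a threshold on any measured value, and all 35 were found among the 49671 genes of the deposited count table. The ob/ob mouse carries a nonsense mutation in the leptin gene, makes no working leptin and becomes obese on any diet. Messenger RNA libraries were sequenced from 12 mice in 4 groups of 3: ob/ob mice on the high-fat diet (ob/ob HFD), ob/ob mice on the normal diet (ob/ob ND), WT mice on the high-fat diet (WT HFD) and WT mice on the normal diet (WT ND). Each mouse gave liver, heart, aorta, epididymal fat, skeletal muscle and the brain regions hippocampus and hypothalamus, so that the 84 libraries form 28 groups of 3. The submitters give 20 weeks before dissection, but whether this is an age or a time on the diet, the sex, the strain and the make-up of the diets are not given in the sources used here. Sample titles number the mice within each group, and the 3 libraries of a group are from different mice.

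Type I interferons are secreted when a cell senses foreign or misplaced nucleic acid. They bind the receptor formed by Ifnar1 and Ifnar2, whose kinases Jak1 and Tyk2 phosphorylate Stat2, which acts with Irf9 in the complex ISGF3. ISGF3 binds the interferon-stimulated response element in promoters and induces genes whose products block viral entry, translation and replication. Many of these genes are also kept at a low level in healthy tissue, and obesity is commonly studied as a state of low-grade inflammation in fat and liver.

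The members fall into 9 groups by role. The transcription factors are Irf7, Irf9 and Stat2. The RNA and DNA sensors are Ddx58 (RIG-I), Ifih1 (MDA5), Dhx58 (LGP2) and Zbp1. Isg15 is a ubiquitin-like modifier, Usp18 the protease that removes it, and Herc6 a ligase that attaches it in mice. Oas1a, Oas2, Oas3, Oasl1 and Oasl2 belong to the 2-5A synthetase family, whose active enzymes switch on RNase L. Ifit1, Ifit2 and Ifit3 bind foreign RNA and lie next to each other on chromosome 19. Other antiviral effectors are Mx1, Mx2, Rsad2 (viperin), Cmpk2, Bst2 (tetherin), Ifitm3, Samd9l, Trim30a and Xaf1. Parp9 and Parp14 are ADP-ribosyltransferases. Psmb8, Psmb9 and Tap1 serve antigen processing, as 2 immunoproteasome subunits and a subunit of the peptide transporter. Rtp4, Ifi35 and Ifi44 have less defined roles. Psmb9 (chr17:34181988-34187764, GRCm38) and Tap1 (chr17:34187553-34197225) lie on opposite strands and share 212 bases of exon. No strand setting is given for the counting, so reads in that stretch cannot be told apart. In all 12 members share exon bases with another annotated gene, and the largest shares of a member's exons are 16.8% for Ifi35, 13.9% for Rtp4, 13.7% for Herc6 and 9.4% for Parp9, which lies across from Dtx3l. Ifit3 has the near-identical copy Ifit3b and Oas1a has Oas1g, so the split of reads within each pair is uncertain.

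The core of the interferon-stimulated response element, GAAANNGAAA on either strand (TTTCNNTTTC on the other), was looked for in RefSeq promoter windows of build GRCm38.p6, each running from 250 bases before to 50 after a transcription start. Of the 35 members 26 had a window, and 12 of these (46.2%) held the core, in 9 of them upstream of the start. Over all 27025 genes with a window, 3.99% held it. The core was found in windows of Stat2, Ifit1, Ifit3, Rsad2, Isg15, Oas1a, Oas3, Bst2 and Trim30a upstream of the start, and of Ddx58, Ifih1 and Ifitm3 after it. The 14 members with a window but no core include Irf9, Ifit2, Oasl1 and Samd9l, whose liver values are also described below. The 160 bases before the start are shown for 6 members picked among those with a match there, with the matches in capitals. In Isg15 there are 3 overlapping matches, beginning 78, 72 and 66 bases before the start, and in Bst2 there are 2 overlapping ones.
Isg15 (chr4:156200819-156200978, minus strand): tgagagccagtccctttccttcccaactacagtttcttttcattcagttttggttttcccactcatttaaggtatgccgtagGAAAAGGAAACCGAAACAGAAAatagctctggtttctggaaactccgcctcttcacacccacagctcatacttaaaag
Ifit1 (chr19:34640729-34640888, plus strand): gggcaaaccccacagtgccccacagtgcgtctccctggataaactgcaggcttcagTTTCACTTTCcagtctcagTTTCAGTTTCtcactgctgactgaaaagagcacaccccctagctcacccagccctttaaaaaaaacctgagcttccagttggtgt
Ifit3 (chr19:34583369-34583528, plus strand): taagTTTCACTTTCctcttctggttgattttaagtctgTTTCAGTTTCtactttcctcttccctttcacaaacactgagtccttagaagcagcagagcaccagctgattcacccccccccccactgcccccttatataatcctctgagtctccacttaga
Rsad2 (chr12:26456453-26456612, minus strand): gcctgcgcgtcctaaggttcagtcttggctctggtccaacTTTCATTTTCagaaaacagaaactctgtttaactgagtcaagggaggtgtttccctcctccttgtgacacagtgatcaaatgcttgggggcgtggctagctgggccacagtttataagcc
Oas3 (chr5:120777660-120777819, minus strand): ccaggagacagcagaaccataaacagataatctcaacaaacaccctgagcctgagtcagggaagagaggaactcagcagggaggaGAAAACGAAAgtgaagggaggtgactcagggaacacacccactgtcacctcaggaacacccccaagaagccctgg
Bst2 (chr8:71537473-71537632, minus strand): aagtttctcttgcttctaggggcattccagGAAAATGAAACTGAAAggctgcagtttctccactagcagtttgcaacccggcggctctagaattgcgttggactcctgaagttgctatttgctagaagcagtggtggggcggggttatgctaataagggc

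The 84 libraries held 10499528 to 17040790 counts each, and expression levels are given as CPM, the usual count per library size, with sizes scaled by TMM within a tissue. Markers of the labelled tissue were high in liver, heart, hippocampus, hypothalamus and epididymal fat. The aorta libraries carried more adipocyte than smooth muscle RNA: the summed CPM of 5 adipocyte markers was 15288 to 24733, against 251 to 1277 for 5 smooth muscle markers. Skeletal muscle libraries varied most, with 4527 to 220052 CPM summed over 5 fibre markers. Each comparison was tested by edgeR's quasi-likelihood test within a tissue, with p-values adjusted by the Benjamini-Hochberg method over all genes of the tissue that passed a low-count filter, and a member was called at an adjusted p under 0.05. Of the 35 members 28 passed the filter in all 7 tissues. Oas1a, Oas2, Oasl1, Mx1, Ifi44 and Zbp1 failed it in the hippocampus and hypothalamus, and Oas3 passed in fat, liver and muscle.

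In WT ND mice the members were low in both brain regions and higher in the other tissues. Per kilobase of exon, the median level over the 35 members was 3.47 CPM in liver, 3.51 in epididymal fat, 3.43 in heart, 2.79 in aorta and 1.18 in skeletal muscle, but 0.511 in hypothalamus and 0.503 in hippocampus. Ifitm3, a membrane protein that blocks viral entry, was the most abundant member in liver at 549 ± 56.3 CPM per kb (SD, n = 3), against 7.88 ± 0.890 in hypothalamus. Bst2, which tethers budding virus to the cell surface, stood at 252 ± 10.7 CPM per kb in liver. The liver had the highest WT ND mean for 14 members, fat for 9, aorta for 6 and heart for 5. The remaining member, Cmpk2, a mitochondrial nucleotide kinase, was highest in hypothalamus at 7.66 ± 0.420 CPM per kb, followed by hippocampus at 6.02 ± 0.139. Liver was not highest for every member: Ifit2 was at 0.793 ± 0.187 CPM per kb in WT ND liver, its lowest level over the 7 tissues.

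**Figure D1:**
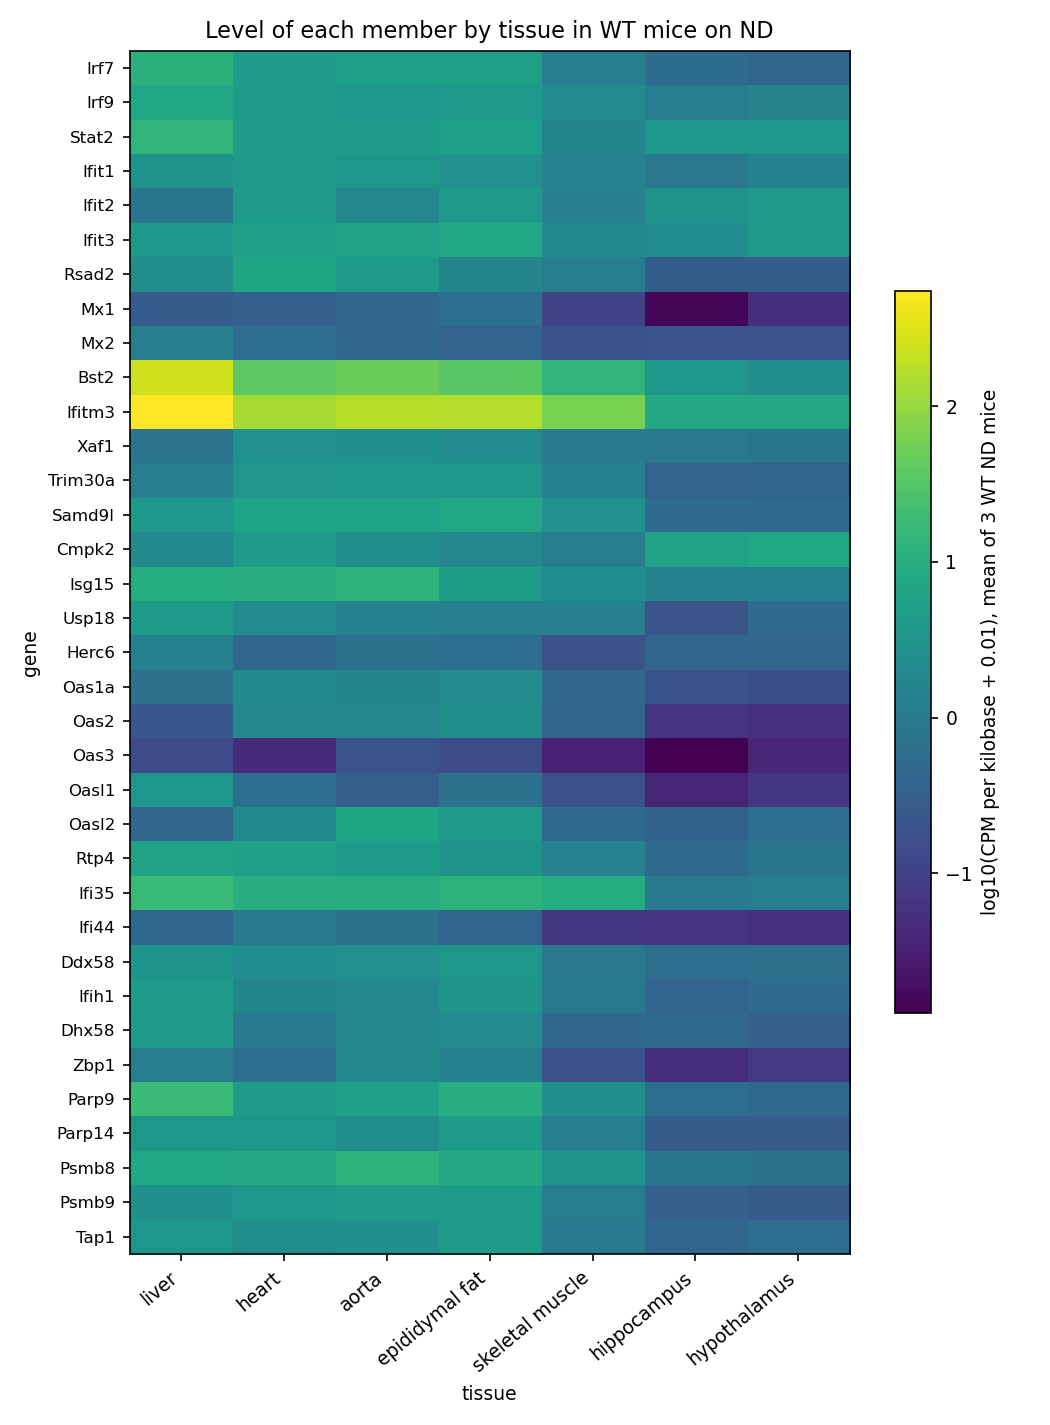
Level of each of the 35 members (rows, grouped by role) in each of the 7 tissues (columns) in WT ND mice, as the logarithm to base 10 of the mean CPM per kilobase over 3 mice. Ifitm3 and Bst2 stand out in liver, and most members are at their darkest, the low end of the scale, in hippocampus or hypothalamus.

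The 4 groups were compared as ob/ob over WT on each diet and as high-fat over normal diet in each genotype. The comparisons share groups: the WT HFD libraries enter both ob/ob HFD over WT HFD and WT HFD over WT ND, and the WT ND libraries enter both ob/ob ND over WT ND and WT HFD over WT ND. On the high-fat diet no member was higher in ob/ob than in WT mice in any tissue by the test. Members were lower in liver, heart and fat, as were 4 in aorta and 1 in hippocampus. The share in aorta was close to that of all genes called lower there (11.8% against 7.84%). On the normal diet members were lower in ob/ob heart and aorta, mostly lower in fat (15 lower and 2 higher), mixed in liver and higher in skeletal muscle. These are RNA levels of whole tissue, so fewer cells of a type and less RNA per cell cannot be told apart.

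**Figure D2:**
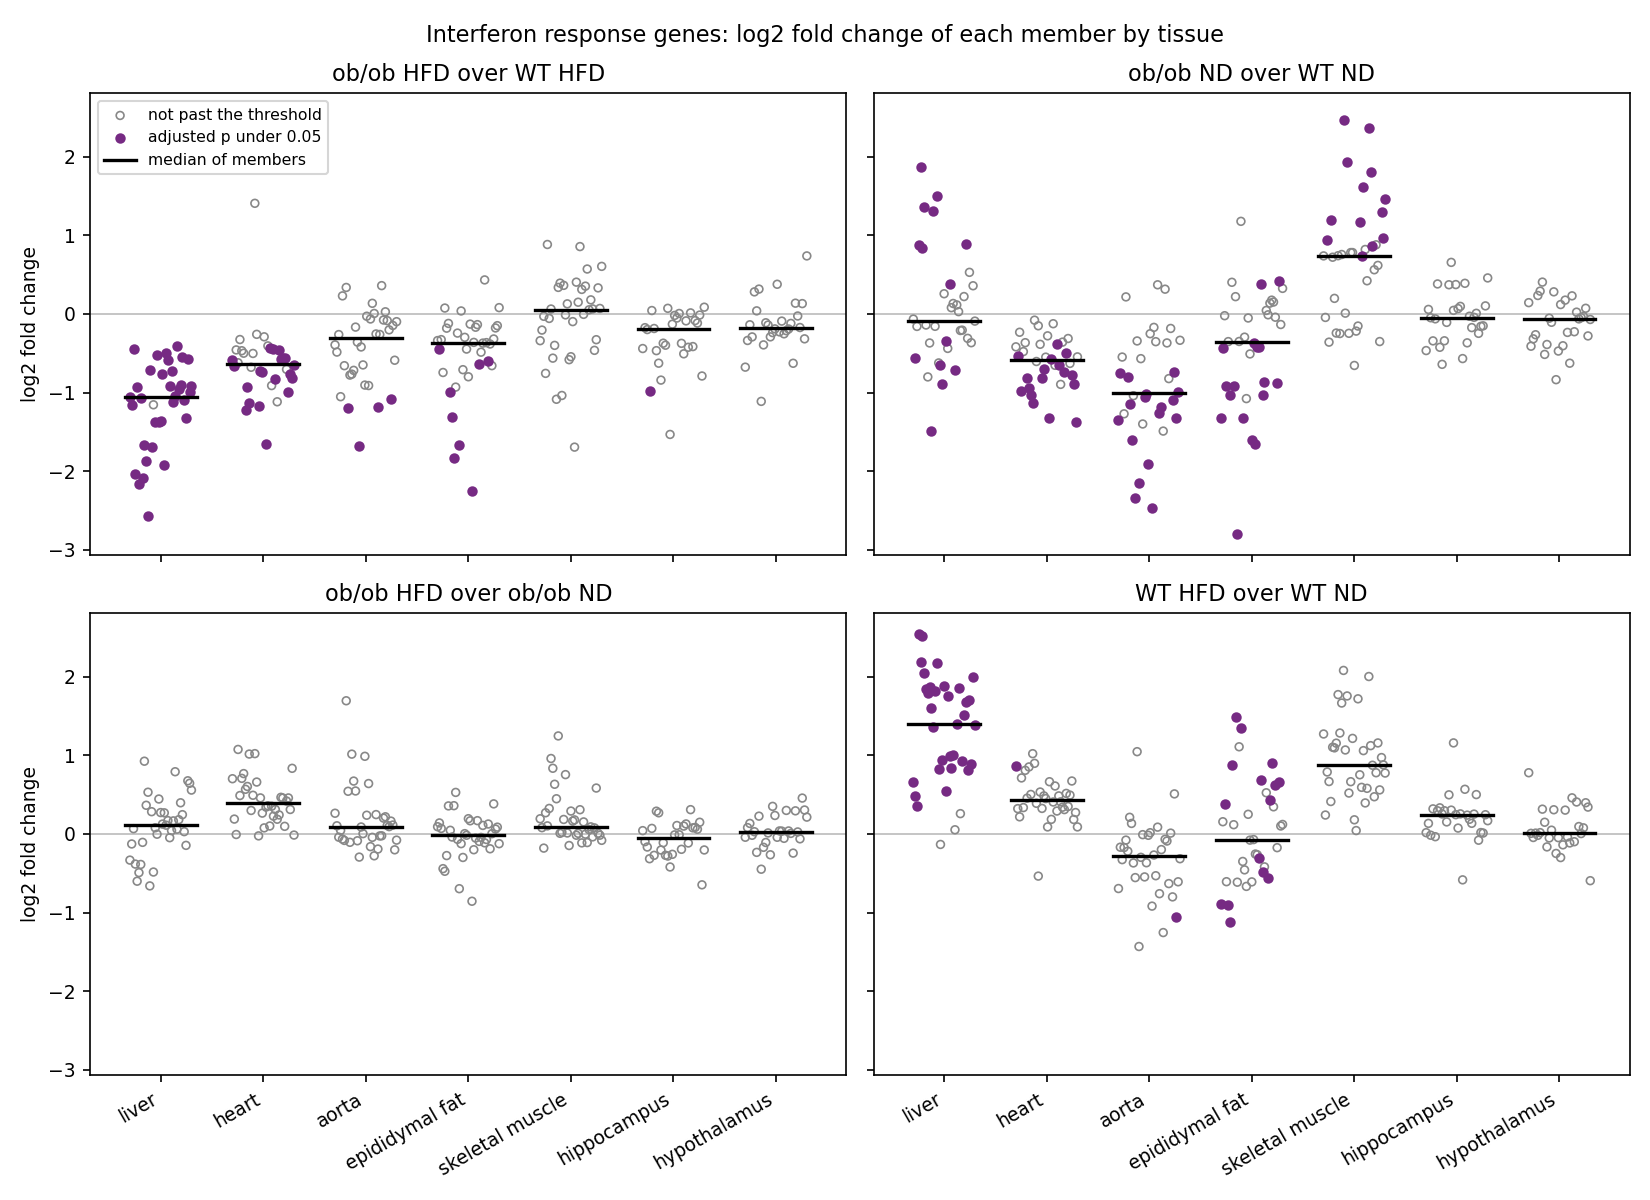
Log2 fold change of each member tested (1 point per member) by tissue, in 4 panels for ob/ob HFD over WT HFD, ob/ob ND over WT ND, ob/ob HFD over ob/ob ND and WT HFD over WT ND; filled points passed the test and the line is the median. In liver 34 filled points lie under 0 for ob/ob HFD over WT HFD and 32 lie above 0 for WT HFD over WT ND, and no point is filled for the diet in ob/ob mice.

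In liver on the high-fat diet, 34 of 35 members were lower in ob/ob than in WT mice and none was higher, where 9.85% of all liver genes were called lower and 8.61% higher. The median log2 fold change was -1.06 over the members, while the median over all genes was 0.01 here and between -0.04 and 0.03 in every comparison and tissue. For the same 34 members all 3 ob/ob HFD livers were below all 3 WT HFD livers. The exception was Mx1, a dynamin-like GTPase that blocks orthomyxoviruses, at 1.19, 1.74 and 1.05 CPM in ob/ob HFD livers and 1.98, 1.57 and 5.60 CPM in WT HFD livers (edgeR adjusted p = 0.0946). The share of all liver genes whose groups were separated in this way is not given here. An unadjusted edgeR p under 0.05 was found for all 35 members and for 4326 of 13246 genes, both directions together. Without any 1 of the 12 mice 30 of the 34 calls remained. Ifit2 lost its call without WT HFD mouse 3 (adjusted p = 0.0507) and Samd9l without WT HFD mouse 2 (0.0571). Psmb8 lost it without ob/ob HFD mouse 1 (0.0922) or 3 (0.064) or WT HFD mouse 1 (0.0516) or 3 (0.108), and Zbp1 without ob/ob HFD mouse 1 (0.066) or 3 (0.0998) or WT HFD mouse 3 (0.128).

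The comparison of diets in WT livers ran the other way. Of 35 members 32 were higher in WT HFD than in WT ND livers and none was lower, where 12% of all genes were higher and 9.87% lower. The median log2 fold change over the members was 1.40. The 3 that were not called were Bst2, Ifitm3 and Parp9, whose edgeR adjusted p was 0.0551 for Parp9, 0.413 for Bst2 and 0.805 for Ifitm3. Without any 1 mouse 29 of the 32 calls remained. Stat2 was lost without WT HFD mouse 2 (adjusted p = 0.0601) or WT ND mouse 3 (0.0632), and Oas3 without WT ND mouse 1 (0.0501) or 3 (0.054). Mx2 was lost without 7 of the mice one at a time, with an adjusted p of 0.165 at most. In ob/ob livers the diet called no member by edgeR, where edgeR called 0.377% of all genes higher and 0.536% lower. An unadjusted edgeR p under 0.05 was found there for 9 members and for 1894 of all 13246 genes. DESeq2 called 3 members there, and of 11107 genes it called 142 higher and 172 lower. Without WT HFD mouse 3 edgeR called 2 members higher and 1 lower there, and without WT ND mouse 3 it called 1. The WT HFD group had the highest mean of the 4 groups for 34 of 35 members, and Bst2 was highest in WT ND livers.

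**Figure D3:**
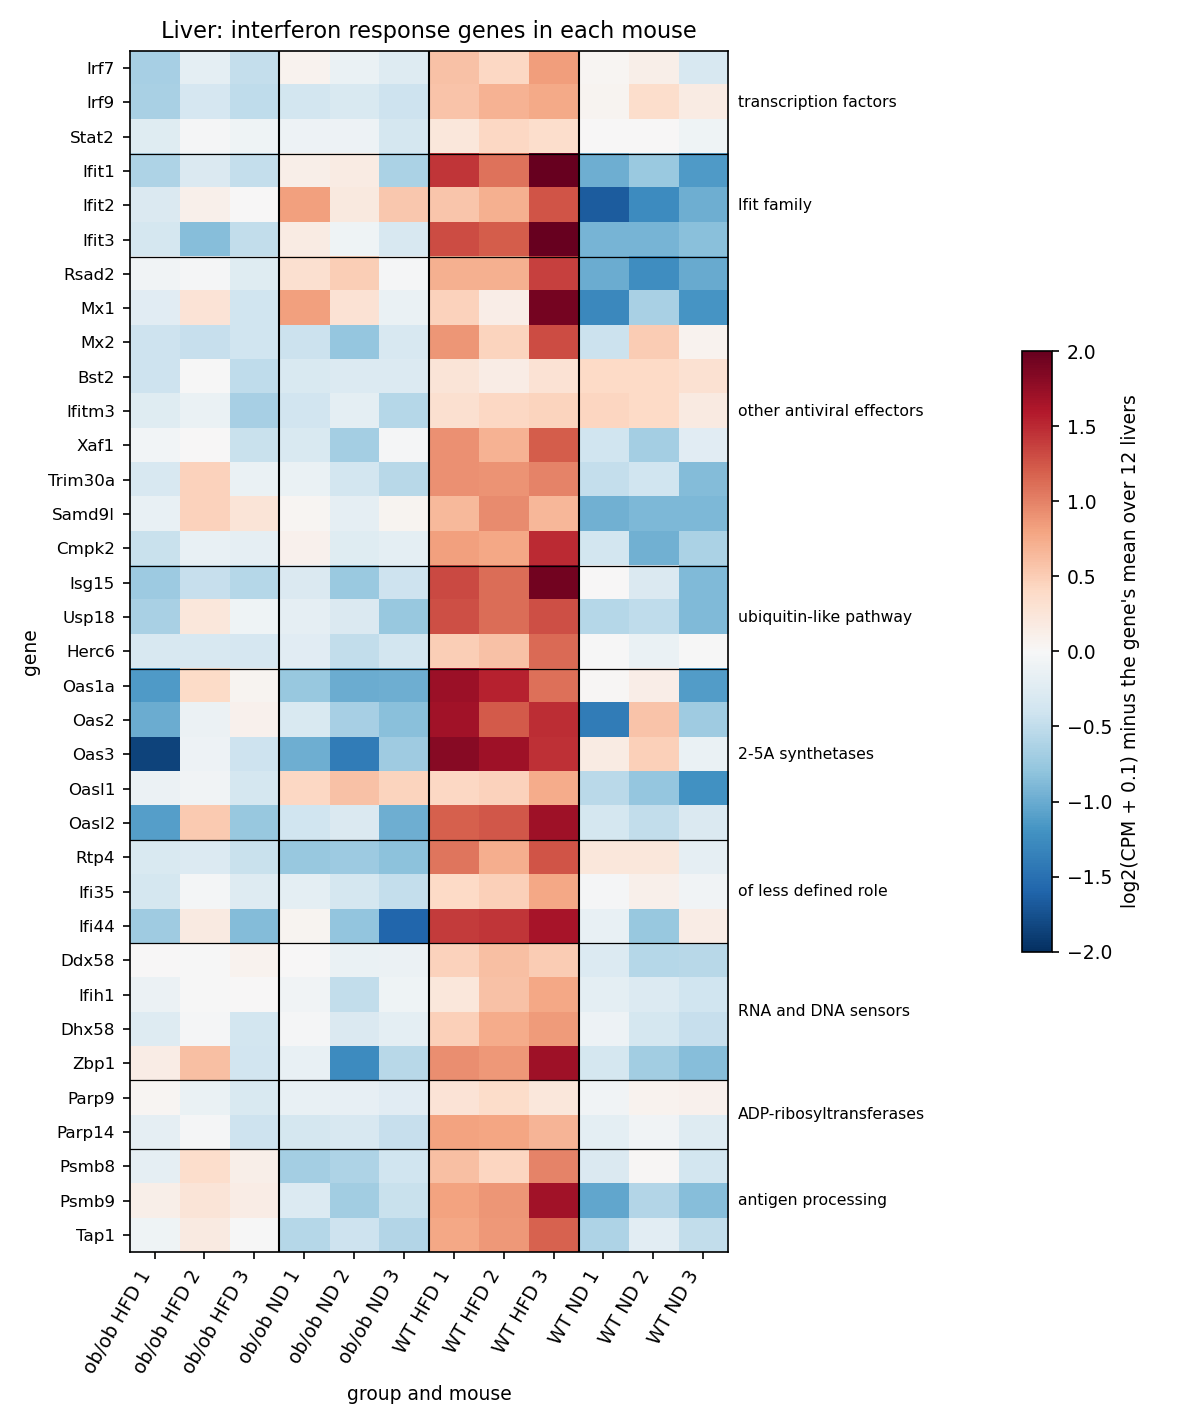
Heat map of the 35 members (rows, by role) in 12 livers (columns: ob/ob HFD, ob/ob ND, WT HFD, WT ND, 3 mice each), as log2 CPM minus the gene's mean over the 12 livers. The 3 WT HFD columns are above the mean for nearly every row, and the Bst2 and Ifitm3 rows are also above it in WT ND.

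All 3 transcription factors were lower in ob/ob HFD livers and higher in WT HFD than in WT ND livers. Irf9, the DNA-binding subunit of ISGF3, was at 15.4, 19.2 and 17 CPM in ob/ob HFD livers, 18.7, 19.5 and 18.2 CPM in ob/ob ND livers, 35.8, 39.2 and 40.8 CPM in WT HFD livers and 25.2, 30.9 and 27 CPM in WT ND livers. The ob/ob livers lay below all WT livers on both diets, with no overlap. The log2 fold change of ob/ob HFD over WT HFD was -1.16 ± 0.10 (SE, edgeR adjusted p = 2.48e-05), and that of WT HFD over WT ND was 0.48 ± 0.10 (adjusted p = 0.00547). Irf7, the factor that amplifies interferon production, had 19.7, 27.3 and 22.6 CPM in ob/ob HFD livers and 47.1, 42 and 56.1 CPM in WT HFD livers, without overlap (-1.06 ± 0.15, adjusted p = 0.000534). Stat2 changed least of the 3, at 33.6, 39.1 and 37.4 CPM in ob/ob HFD livers and 46.2, 52.7 and 50.7 CPM in WT HFD livers (-0.44 ± 0.09, adjusted p = 0.00484). Its diet difference in WT livers was 0.35 ± 0.09.

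Ifit1 and Ifit3 were among the most strongly changed members in liver. Ifit1 was at 6.57, 8.27 and 7.27 CPM in ob/ob HFD livers, 11, 11.4 and 6.49 CPM in ob/ob ND livers, 27.6, 21.6 and 42.5 CPM in WT HFD livers and 5.10, 5.99 and 4.56 CPM in WT ND livers. Every WT HFD liver exceeded all 9 others, and WT HFD mouse 3 was the highest. Its log2 fold change was -2.04 ± 0.25 for ob/ob HFD over WT HFD (edgeR adjusted p = 0.000195) and 2.54 ± 0.26 for WT HFD over WT ND (adjusted p = 5.91e-05), the largest called increase of any member on the diet. Ifit3 had 6.27, 4.38 and 5.70 CPM in ob/ob HFD livers, 8.96, 7.59 and 6.42 CPM in ob/ob ND livers, 19.9, 18.7 and 35 CPM in WT HFD livers and 4.15, 4.16 and 4.47 CPM in WT ND livers. The order of the groups was as for Ifit1, with log2 fold changes of -2.16 ± 0.23 for the genotype on the high-fat diet (adjusted p = 9.9e-05) and 2.51 ± 0.24 for the diet in WT livers (adjusted p = 3.49e-05). Ifit2 changed less with the genotype (-0.93 ± 0.22, adjusted p = 0.0121) than the median member, and by 2.19 ± 0.26 with the diet in WT livers (adjusted p = 0.000134).

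Among the other effectors, Rsad2, which makes a chain-terminating ribonucleotide, was at 14.1, 14.7 and 12.5 CPM in ob/ob HFD livers, 18.6, 20.9 and 14.6 CPM in ob/ob ND livers, 24.3, 24.4 and 38.5 CPM in WT HFD livers and 7.43, 6.25 and 7.32 CPM in WT ND livers. The WT ND livers were lowest and the WT HFD livers highest, with the ob/ob livers between them. Rsad2 rose with the diet in WT livers by 2.05 ± 0.19 on the log2 scale (edgeR adjusted p = 3.25e-05). Samd9l, a translation inhibitor, was at 23, 35.1 and 30.4 CPM in ob/ob HFD livers, 26.1, 22.3 and 26.4 CPM in ob/ob ND livers, 39.9, 48.7 and 40.3 CPM in WT HFD livers and 13, 13.6 and 13.6 CPM in WT ND livers. It had the smallest p of all members for the diet in WT livers, with a log2 fold change of 1.68 ± 0.14 (adjusted p = 1.68e-05). Bst2 and Ifitm3 followed the genotype and not the diet: Bst2 was at 87.8, 117 and 82.2 CPM in ob/ob HFD livers, 94.6, 96.6 and 96.4 CPM in ob/ob ND livers, 139, 130.2 and 143 CPM in WT HFD livers and 154, 154 and 145 CPM in WT ND livers. All 6 ob/ob livers were below all 6 WT livers.

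Isg15, Usp18 and Herc6 were all lower in ob/ob HFD than in WT HFD livers. Isg15 was at 3.51, 4.24 and 3.90 CPM in ob/ob HFD livers, 4.77, 3.44 and 4.35 CPM in ob/ob ND livers, 14.8, 12.8 and 22.5 CPM in WT HFD livers and 5.87, 4.77 and 3.14 CPM in WT ND livers. The WT HFD livers stood alone above the other 3 groups, which overlapped (-2.09 ± 0.24 for ob/ob HFD over WT HFD, edgeR adjusted p = 0.000151). All 5 2-5A synthetase genes were lower as well, and Oas3 had the largest decrease of any member (-2.57 ± 0.43, adjusted p = 0.0014). It was at 0.0746, 0.487 and 0.375 CPM in ob/ob HFD livers and 2.13, 1.94 and 1.64 CPM in WT HFD livers, so that this fold rests on few counts. Both ADP-ribosyltransferases were lower: Parp14 was at 21.9, 24.6 and 18.7 CPM in ob/ob HFD livers and 43.5, 43 and 40.2 CPM in WT HFD livers (-0.96 ± 0.10, adjusted p = 8.71e-05), and its neighbour Parp9 had the smallest decrease called (-0.41 ± 0.09, adjusted p = 0.00715). All 4 sensors and all 3 antigen processing genes were lower too. Tap1 was at 16.2, 19.3 and 17.1 CPM in ob/ob HFD livers and 29.2, 31.3 and 38.9 CPM in WT HFD livers, without overlap.

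**Figure D4:**
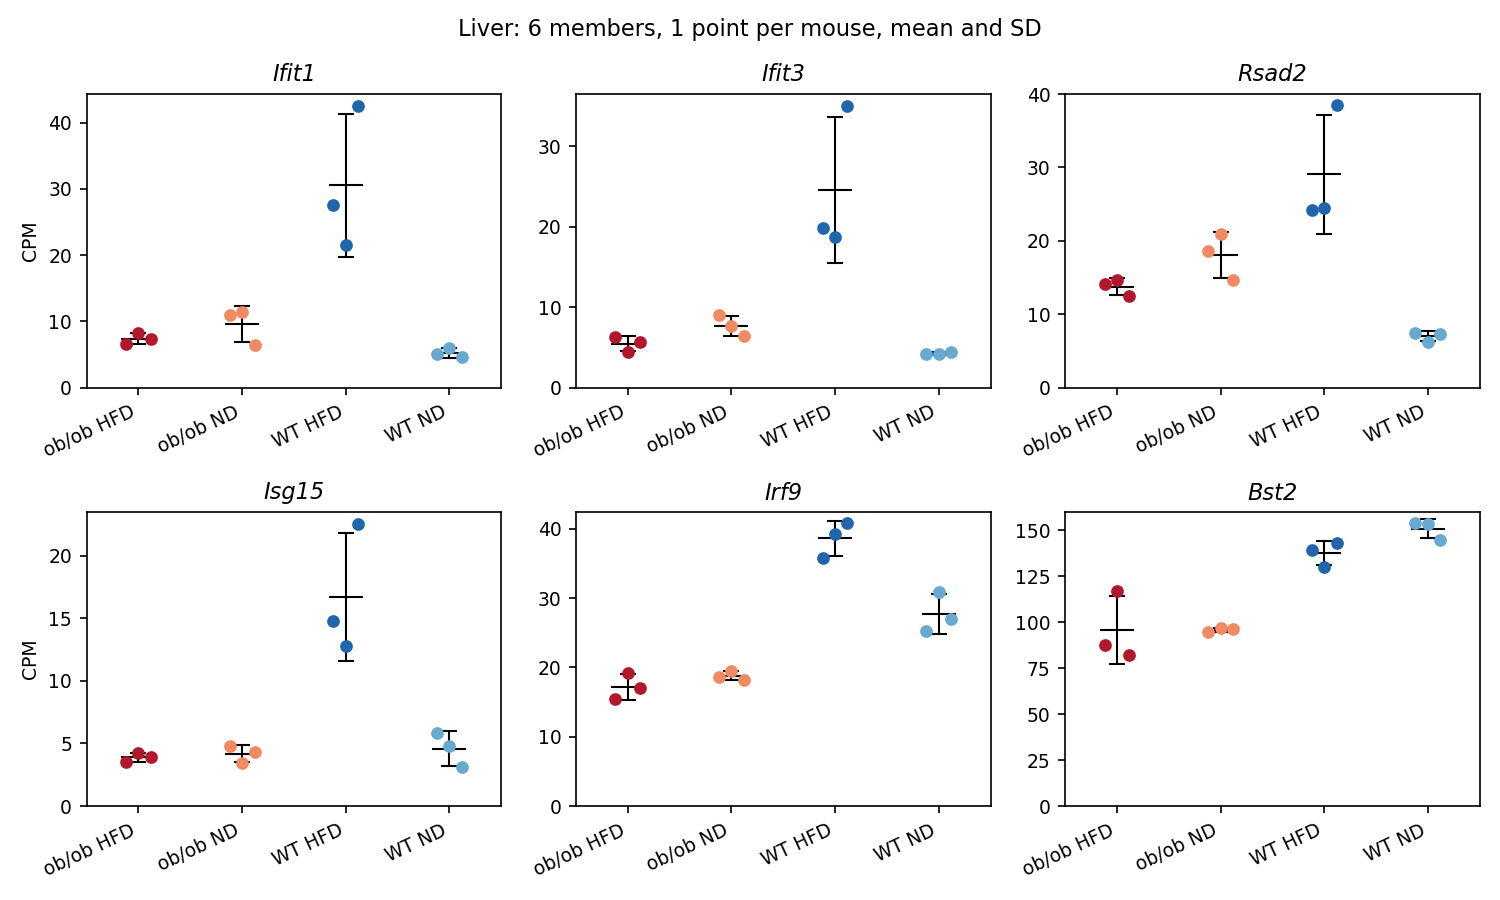
CPM of Ifit1, Ifit3, Rsad2, Isg15, Irf9 and Bst2 in each liver (1 point per mouse), with the mean and SD of 3 mice, for ob/ob HFD, ob/ob ND, WT HFD and WT ND. In the panels of Ifit1, Ifit3, Rsad2, Isg15 and Irf9 the WT HFD mice are the highest, and in the Bst2 panel both WT groups are above both ob/ob groups.

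Whether the diet acted differently in the 2 genotypes was tested as an interaction, the diet difference in ob/ob livers minus that in WT livers. It was below 0 for 19 of 35 members and above 0 for none by the test, where 3.96% of all genes were below 0 and 2.2% above. The smallest p belonged to Oasl1, a member of the 2-5A synthetase family, at 9.85, 10.2 and 8.32 CPM in ob/ob HFD livers, 14.2, 16 and 14.6 CPM in ob/ob ND livers, 14.1, 14.6 and 17.9 CPM in WT HFD livers and 7.26, 6.16 and 4.56 CPM in WT ND livers. All 3 ob/ob HFD livers were below all 3 ob/ob ND livers and all 3 WT HFD livers above all 3 WT ND livers, and the interaction was -2.03 ± 0.22 (edgeR adjusted p = 0.000273). For Rsad2 the interaction was -2.43 ± 0.26 (adjusted p = 0.000275). All 3 Ifit genes were called, as were Irf7, Isg15 and Usp18. Calls for 13 of the 19 remained without any 1 mouse, and the count stayed between 13 and 20.

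On the normal diet the ob/ob livers did not differ from WT livers in 1 direction. By the test 8 of 35 members were higher and 6 lower, where 19.3% of all genes were higher and 17.1% lower. The higher ones were Ifit1, Ifit2, Ifit3, Rsad2, Oasl1, Mx1, Ddx58 and Samd9l, and the lower ones Irf9, Oas3, Bst2, Rtp4, Ifi35 and Ifitm3. Oasl1 was 1.31 ± 0.16 on the log2 scale above WT ND (edgeR adjusted p = 4.28e-05), Ifit2 1.86 ± 0.26 (adjusted p = 0.000114) and Rsad2 1.36 ± 0.20 (adjusted p = 0.00015). Ifit2, which binds foreign RNA as a partner of Ifit3, was at 9.18, 5.90 and 7.49 CPM in ob/ob ND livers and 1.55, 2.08 and 2.57 CPM in WT ND livers, with no overlap. Irf9 was lower, with a log2 fold change of -0.56 ± 0.10 (adjusted p = 0.00104). All 6 lower members were also lower on the high-fat diet. There 34 of 35 members were called lower, so this overlap was nearly fixed in advance. The lowest fold on the normal diet belonged to Oas3 (-1.49 ± 0.53, adjusted p = 0.0424). Its call was lost with DESeq2 (0.087) and without each of 10 mice in turn, with an adjusted p of 0.134 at most. Of the 14 calls 9 remained without any 1 mouse, and without WT ND mouse 1 the count was 5 higher and 4 lower.

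Few macrophage markers were called in liver. The summed CPM of 8 macrophage markers was 298 to 563 in ob/ob HFD livers, 241 to 265 in ob/ob ND livers, 304 to 340 in WT HFD livers and 86.3 to 316 in WT ND livers. For ob/ob HFD over WT HFD 0 of 8 macrophage markers and 1 of 4 Kupffer cell markers were called, the 1 in the higher direction. For WT HFD over WT ND 2 of 8 macrophage markers were higher. The part of cell make-up in the liver values was not tested beyond these markers.

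In heart the members were lower in ob/ob mice on both diets. Of 34 members tested 20 were lower on the high-fat diet and none higher, where 8.36% of all genes were lower and 8.82% higher. There were 17 lower on the normal diet and none higher, where 6.48% of all genes were lower and 6.26% higher. The median log2 fold change over the members was -0.64 on the high-fat diet and -0.59 on the normal diet. The calls shared by both diets numbered 14, which is 70% of the 20 and 82.4% of the 17. The share of all heart genes called lower on both diets is not given here, so this overlap cannot be set against it. Without any 1 mouse 13 of the 20 calls remained on the high-fat diet and 7 of the 17 on the normal diet, where the count fell to 11 without ob/ob ND mouse 3, to 8 without WT ND mouse 2 and to 10 without WT ND mouse 3. The ob/ob ND hearts had the lowest mean of the 4 groups for 30 of 34 members and the WT HFD hearts the highest for 33.

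Bst2 had the smallest p of the members in heart on the high-fat diet. It was at 16.7, 12 and 12 CPM in ob/ob HFD hearts, 13.4, 12.3 and 15.5 CPM in ob/ob ND hearts, 29.2, 31.6 and 30.6 CPM in WT HFD hearts and 24.1, 25 and 23.8 CPM in WT ND hearts. All 6 ob/ob hearts were below all 6 WT hearts, with log2 fold changes of -1.17 ± 0.12 on the high-fat diet (edgeR adjusted p = 2.41e-05) and -0.82 ± 0.12 on the normal diet (adjusted p = 0.000515). Ifi44, a cytoplasmic protein of unclear function, was at 1.80, 2.41 and 2.34 CPM in ob/ob HFD hearts, 1.36, 1.93 and 1.86 CPM in ob/ob ND hearts, 6.95, 8.19 and 5.36 CPM in WT HFD hearts and 3.12, 5.39 and 4.50 CPM in WT ND hearts. Here too the genotypes did not overlap, and the decrease on the high-fat diet was the largest of any member in heart (-1.65 ± 0.23, adjusted p = 0.000272). Cmpk2 was at 5.90, 10.6 and 7.66 CPM in ob/ob HFD hearts and 16.2, 16.8 and 15 CPM in WT HFD hearts (-0.99 ± 0.16, adjusted p = 0.000663).

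The immunoproteasome genes were lower in ob/ob hearts on both diets. Psmb9 was at 4.27, 2.94 and 3.21 CPM in ob/ob ND hearts and 9.62, 9.34 and 8.17 CPM in WT ND hearts, the largest decrease on the normal diet (-1.38 ± 0.19, edgeR adjusted p = 0.000309). Psmb8 was at 7.67, 7.51 and 10.2 CPM in ob/ob ND hearts and 15.6, 16.8 and 15.2 CPM in WT ND hearts (-0.90 ± 0.13, adjusted p = 0.000405). Tap1 was called lower beside both of them on the high-fat diet, but lost its call without ob/ob HFD mouse 1 (0.0718) or 3 (0.0726) or WT HFD mouse 1 (0.0717) or 2 (0.0721). The smallest decreases called were Ifih1 on the high-fat diet (-0.43 ± 0.12, adjusted p = 0.0247) and Ifitm3 on the normal diet (-0.38 ± 0.11, adjusted p = 0.0312). Ifih1 was lost with DESeq2 (0.0701) and without ob/ob HFD mouse 1 (0.067) or 3 (0.102) or WT HFD mouse 2 (0.0941). Ifitm3 was lost without ob/ob ND mouse 1 (0.0909) or 2 (0.131) or WT ND mouse 1 (0.0682), 2 (0.0889) or 3 (0.0549).

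Irf9 was at 13.4, 17.4 and 11.4 CPM in ob/ob HFD hearts, 12.4, 11.1 and 13.5 CPM in ob/ob ND hearts, 22.6, 24.1 and 20.2 CPM in WT HFD hearts and 16.8, 18.2 and 18.6 CPM in WT ND hearts. It was lower in ob/ob hearts on the high-fat diet (-0.66 ± 0.13, edgeR adjusted p = 0.00306) and on the normal diet (-0.53 ± 0.14, adjusted p = 0.0183), where the call was lost without ob/ob ND mouse 2 (0.0746), WT ND mouse 2 (0.0505) or WT ND mouse 3 (0.062). Irf7 was at 17, 15.7 and 12.2 CPM in ob/ob HFD hearts, 9.03, 9.34 and 9.21 CPM in ob/ob ND hearts, 22, 24.7 and 20.5 CPM in WT HFD hearts and 12.2, 13.9 and 10.8 CPM in WT ND hearts. In both genotypes all 3 hearts on the high-fat diet exceeded all 3 on the normal diet. It was the only member called for the diet in WT hearts (0.87 ± 0.13, adjusted p = 0.0103), where 0.11% of all genes were higher and 0.146% lower. That call was lost without WT HFD mouse 2 (0.0617), WT ND mouse 1 (0.0607) or WT ND mouse 3 (0.0628), and 2 or 3 members were called without ob/ob HFD mouse 1, 2 or 3 or WT ND mouse 2. Stat2 was not called in heart, at -0.46 ± 0.19 for ob/ob over WT on the high-fat diet and -0.23 ± 0.20 on the normal diet. A further 20 members had an unadjusted p under 0.05 for the diet in WT hearts, and 33 of 34 fold changes were above 0. In ob/ob hearts edgeR called no member for the diet, and 0.00731% of all genes higher and 0.0146% lower. It called 1 member without ob/ob HFD mouse 3, and 14 members had an unadjusted p under 0.05. DESeq2 called 1 member, and of 12641 genes it called 20 higher and 7 lower. The interaction in heart called no member by either tool, with 1 unadjusted p under 0.05, and no other gene was called by edgeR. Of 13673 genes, 1244 had an unadjusted p under 0.05 for the diet in WT hearts, 1689 in ob/ob hearts and 1087 for the interaction. The summed macrophage markers were 313 to 467 CPM in ob/ob HFD hearts, 317 to 436 in ob/ob ND hearts, 464 to 567 in WT HFD hearts and 461 to 607 in WT ND hearts. Of the 8 markers 2 were lower in ob/ob hearts on the high-fat diet and 3 on the normal diet, and their part in the members' decrease was not tested.

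**Figure D5:**
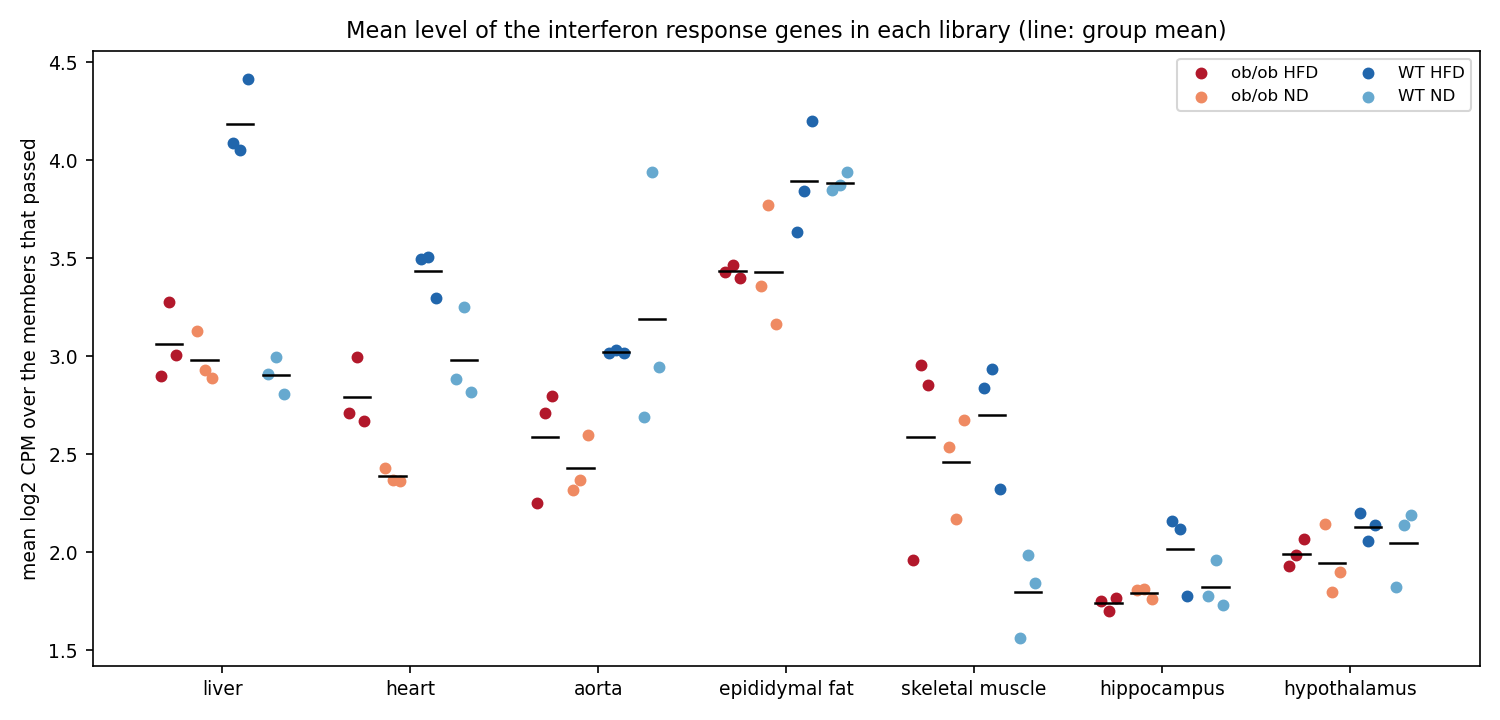
Mean log2 CPM over the members that passed the filter, for each library (1 point per mouse) in 7 tissues and the 4 groups ob/ob HFD, ob/ob ND, WT HFD and WT ND, with a line at the group mean. The WT HFD livers and hearts are the highest of their tissues, the WT ND muscles are at the low end of theirs, and WT ND mouse 2 stands above the other aortas.

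In aorta members were lower in ob/ob mice on the normal diet. The few calls on the high-fat diet were close to the share of all genes. On the normal diet 17 of 34 were lower and none higher, where 15.9% of all genes were lower and 15.9% higher. The high-fat diet groups gave 4 lower members, Isg15, Mx2, Xaf1 and Cmpk2, and none higher, where 7.84% of all genes were lower and 8.34% higher. WT ND mouse 2 stood apart: its members' mean log2 CPM was 3.94, against 2.69 and 2.94 in the other WT ND aortas, and its summed B cell markers were at 607 CPM, against 75.7 and 167. Without it 9 members were lower and 1 higher on the normal diet. The count was also 9 without ob/ob ND mouse 1, 10 without mouse 2 and 11 without mouse 3 of that group. The count for the high-fat diet was 1 or 2 without any 1 mouse other than WT ND mouse 1 or 2, without which it was 6.

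Bst2 was the member with the smallest p in aorta on the normal diet, at 21.8, 17.2 and 21 CPM in ob/ob HFD aortas, 17.8, 19 and 19.7 CPM in ob/ob ND aortas, 27.6, 25.1 and 27.8 CPM in WT HFD aortas and 29.3, 43.9 and 44.3 CPM in WT ND aortas. All 6 ob/ob aortas were below all 6 WT aortas, and on the normal diet the log2 fold change was -1.06 ± 0.16 (edgeR adjusted p = 0.000575). Psmb8 was at 14, 10.5 and 12.1 CPM in ob/ob ND aortas and 20.8, 36.6 and 33.9 CPM in WT ND aortas (-1.32 ± 0.21, adjusted p = 0.000941). Usp18 was at 0.654, 0.639 and 1.34 CPM in ob/ob ND aortas and 2.45, 4.87 and 2.86 CPM in WT ND aortas (-1.91 ± 0.39, adjusted p = 0.00351). Neither overlapped between these groups. The largest fold, that of Ifi44 (-2.47 ± 0.77, adjusted p = 0.028), rested on WT ND mouse 2: the WT ND aortas were at 0.595, 8.69 and 1.57 CPM, and without that mouse the adjusted p was 0.29. It also lost its call without any 1 of the ob/ob ND mice (0.0512, 0.0826 and 0.0967). Cmpk2 was lower on both diets, with a log2 fold change of -1.09 ± 0.22 on the high-fat diet (adjusted p = 0.00684) and -0.74 ± 0.22 on the normal diet (adjusted p = 0.0231). The call on the high-fat diet remained without any 1 mouse, and that on the normal diet was lost without ob/ob ND mouse 1 (0.07) or 3 (0.0695) or WT ND mouse 2 (0.0636).

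The other calls in aorta were less stable. Mx2, a paralogue of Mx1, was lower on the high-fat diet (-1.69 ± 0.53, edgeR adjusted p = 0.0479) and was lost without 9 of the 12 mice one at a time, with an adjusted p of 0.144 at most. Xaf1 (-1.18 ± 0.30, adjusted p = 0.0198), a pro-apoptotic zinc-finger protein, was lost without ob/ob HFD mouse 3 (0.0723) or WT HFD mouse 1 (0.066) or 3 (0.0621). Irf7 was lower on the normal diet (-1.35 ± 0.32, adjusted p = 0.0073), and so was Irf9 (-0.76 ± 0.25, adjusted p = 0.0372), which was lost without 6 of the mice in turn (0.167 at most, without WT ND mouse 2). Stat2 was not called (-0.26 ± 0.26 on the high-fat diet, -0.55 ± 0.26 on the normal diet). For the diet in WT aortas Psmb8 alone was called, in the lower direction (-1.06 ± 0.21, adjusted p = 0.0163), where 2.07% of all genes were lower and 2.13% higher. It was lost without WT HFD mouse 1 (0.0924) or 3 (0.0706) or WT ND mouse 3 (0.0556), and without WT ND mouse 1 the count was 5 lower. For the diet in ob/ob aortas edgeR called no member and no other gene, and 2 members had an unadjusted p under 0.05. DESeq2 called 1 member, and of 13511 genes it called 10 higher and 4 lower. Without ob/ob HFD mouse 1 edgeR called 1 member for that diet comparison. For the interaction edgeR called no member, where it called 0.169% of all genes higher and 0.257% lower. An unadjusted p under 0.05 was found for 5 members. DESeq2 called 1 member for the interaction, and of 14555 genes it called 154 higher and 143 lower. Of 14761 genes 594 had an unadjusted p under 0.05 for the diet in ob/ob aortas and 2055 for the interaction. Without WT ND mouse 1 edgeR called 3 members there and without ob/ob HFD mouse 1 it called 1.

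In epididymal fat members were called in both directions, but only the lower calls for the genotype exceeded the shares of all genes. In ob/ob fat 15 of 35 were lower and 2 higher on the normal diet, where 23% of all genes were lower and 25.2% higher. Of the same 35 members 8 were lower on the high-fat diet and none higher, where 7.5% of all genes were lower and 10.1% higher. With the diet in WT fat 9 were higher and 6 lower, where 28.6% of all genes were higher and 30.3% lower. The lower count on the normal diet was 7 without ob/ob ND mouse 1 or 3, and the count on the high-fat diet was 3 without ob/ob HFD mouse 1, 2 without ob/ob HFD mouse 3 and 3 without WT HFD mouse 2. Without WT HFD mouse 2 the diet called 7 members higher and 1 lower in WT fat. The cell make-up differed between these groups: macrophage markers summed to 7496 to 10990 CPM in ob/ob HFD fat, 5906 to 10090 in ob/ob ND fat, 8446 to 16363 in WT HFD fat and 1814 to 1926 in WT ND fat. Of the 8 markers 7 were higher in ob/ob fat and 1 lower on the normal diet, while 4 of 5 adipocyte markers were lower. The part of these cells in the members' values was not tested.

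Oas2 had the largest decrease in ob/ob fat on the normal diet. It was at 1.98, 3.95 and 2.27 CPM in ob/ob HFD fat, 1.08, 3.45 and 1.80 CPM in ob/ob ND fat, 7.05, 8.45 and 13.7 CPM in WT HFD fat and 15.6, 8.95 and 20.1 CPM in WT ND fat (-2.81 ± 0.46 on the normal diet, edgeR adjusted p = 0.000507). All 6 ob/ob samples were below all 6 WT samples. Ifitm3 behaved alike, at 65.9, 71.9 and 74.3 CPM in ob/ob HFD fat, 71.4, 85.2 and 69.8 CPM in ob/ob ND fat, 123, 113 and 95 CPM in WT HFD fat and 151, 167 and 144 CPM in WT ND fat. Its log2 fold change was -0.64 ± 0.12 on the high-fat diet (adjusted p = 0.00857) and -1.03 ± 0.12 on the normal diet (adjusted p = 4.66e-05), and both calls remained without any 1 mouse. Usp18, the protease that removes Isg15 and damps receptor signalling, was at 1.54, 1.52 and 1.58 CPM in ob/ob ND fat and 5.03, 3.83 and 5.27 CPM in WT ND fat (-1.60 ± 0.27, adjusted p = 0.000599). Psmb8 was 1 of the 2 members higher in ob/ob fat on the normal diet, by 0.42 ± 0.11 (adjusted p = 0.00886).

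Oas1a gave the largest rise with the diet in WT fat. It was at 5.52, 6.64 and 6.96 CPM in ob/ob HFD fat, 6.84, 7.25 and 5.55 CPM in ob/ob ND fat, 14, 13.7 and 19.6 CPM in WT HFD fat and 5.03, 5.45 and 6.37 CPM in WT ND fat. The 3 WT HFD samples stood above all the others, which overlapped. The log2 fold change was 1.49 ± 0.18 for WT HFD over WT ND (edgeR adjusted p = 5.29e-05), and that for ob/ob HFD over WT HFD was -1.31 ± 0.18 (adjusted p = 0.0035). Psmb8 and Dhx58 also rose with the diet in WT fat, by 0.66 ± 0.11 (adjusted p = 0.000421) and 0.69 ± 0.12 (adjusted p = 0.000554). Ifit3 (-1.12 ± 0.37, adjusted p = 0.0223) and Irf7 (-0.90 ± 0.27, adjusted p = 0.0151) fell, neither holding without WT HFD mouse 1 (0.0864 for Ifit3, 0.0633 for Irf7) or 2 (0.0785 and 0.0596), and Ifit3 also not without WT ND mouse 1 (0.0582) or 2 (0.0686). The interaction called 4 members, all below 0: Oas1a (-1.53 ± 0.26, adjusted p = 0.00104), Psmb8 (-0.60 ± 0.16, adjusted p = 0.0108), Dhx58 and Trim30a. There 20.7% of all genes were below 0 and 19.4% above. Its count ranged from 2 without ob/ob HFD mouse 1 to 8 without WT HFD mouse 1, with 7 without ob/ob ND mouse 3, and the calls for Oas1a and Psmb8 remained without any 1 mouse. In ob/ob fat the diet called no member by edgeR or DESeq2, with 1 unadjusted p under 0.05, and no other gene was called by edgeR. Of 15676 genes 848 had an unadjusted p under 0.05.

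Of the remaining calls in fat, Ifi44 had the largest decrease on the high-fat diet (-2.25 ± 0.49, edgeR adjusted p = 0.0146), which was lost without ob/ob HFD mouse 3 (0.0537). Irf9 was lower in ob/ob fat on the high-fat diet (-0.45 ± 0.12, adjusted p = 0.0325), a call lost without ob/ob HFD mouse 1 (0.132) or 3 (0.0859) or WT HFD mouse 1 (0.0751) or 2 (0.0674). It was also lower on the normal diet (-0.43 ± 0.13, adjusted p = 0.0144), a call lost without ob/ob ND mouse 3 (0.0688) or WT ND mouse 3 (0.0627). Irf7 was lower on the normal diet (-1.33 ± 0.28, adjusted p = 0.00249), at 7.53, 15.7 and 10.1 CPM in ob/ob ND fat and 28.3, 25.1 and 30.4 CPM in WT ND fat, without overlap. Stat2 did not pass the test for the genotype (-0.33 ± 0.10 on the high-fat diet, -0.02 ± 0.10 on the normal diet) but was higher with the diet in WT fat (0.37 ± 0.10, adjusted p = 0.00892).

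In skeletal muscle members were higher in ob/ob mice on the normal diet. By the test 13 of 35 were higher and none lower, where 26.6% of all genes were higher and 18.3% lower, and the median log2 fold change over the members was 0.74. All 4 sensors, both ADP-ribosyltransferases and all 3 antigen processing genes were among them. Oasl1 was at 1.10, 3.94 and 2.18 CPM in ob/ob HFD muscle, 2.30, 1.84 and 3.07 CPM in ob/ob ND muscle, 2.09, 2.30 and 1.14 CPM in WT HFD muscle and 0.414, 0.443 and 0.433 CPM in WT ND muscle. The 3 WT ND muscles were below all the others, and Oasl1 had the largest fold on the normal diet (2.47 ± 0.51, edgeR adjusted p = 0.00512). Parp9 was at 16.9, 60.4 and 41.7 CPM in ob/ob HFD muscle, 45.2, 37 and 46.5 CPM in ob/ob ND muscle, 30.2, 29.9 and 20.1 CPM in WT HFD muscle and 8.52, 14.6 and 13.7 CPM in WT ND muscle (1.81 ± 0.39, adjusted p = 0.00611). Tap1 was at 17.4, 13.6 and 15.7 CPM in ob/ob ND muscle and 5.46, 6.12 and 5.37 CPM in WT ND muscle, without overlap (1.46 ± 0.34, adjusted p = 0.00827). Of the transcription factors Stat2 was called (0.94 ± 0.24, adjusted p = 0.0112), and Irf7 (0.74 ± 0.33) and Irf9 (-0.04 ± 0.27) were not. Ifih1 had the smallest fold called (0.73 ± 0.26, adjusted p = 0.0421), lost without 8 of the 12 mice one at a time (0.138 at most). The count was 8 without ob/ob ND mouse 1 or 3.

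The muscle groups also differed in markers of other cell types. Adipocyte markers summed to 10423 to 13965 CPM in ob/ob ND muscle and 429 to 2207 in WT ND muscle, and all 5 were called higher. Macrophage markers summed to 1389 to 1984 CPM in ob/ob ND muscle and 231 to 421 in WT ND muscle, and all 8 were called higher. Fibre markers were at 23929 to 56815 CPM in ob/ob ND muscle and 97288 to 220052 in WT ND muscle. The part of these cells in the members' rise was not tested.

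For ob/ob HFD over WT HFD in muscle no member was called by edgeR or DESeq2, with 4 unadjusted p under 0.05, where 0.0194% of all genes were called higher and 0% lower. Of 15452 genes 2792 had an unadjusted p under 0.05. The ob/ob HFD muscles were far apart: mouse 1 had 116952 CPM of fibre markers, against 4527 in mouse 2 and 17342 in mouse 3, and without mouse 1 the count was 6 higher. For the diet in WT muscle edgeR called no member and no other gene, but 23 members had an unadjusted p under 0.05. All 35 fold changes were above 0, with a median of 0.88. DESeq2 called 4 members, and of 14864 genes it called 767 higher and 62 lower. Of all 15452 genes 2796 had an unadjusted p under 0.05 for the diet in WT muscle. Without ob/ob HFD mouse 1, which is not in that comparison but in the shared estimate of the spread, 16 members were called higher. The share of all genes called in that fit is not given here, so this count cannot be set against it. In ob/ob muscle the diet called no member by edgeR or DESeq2, with 2 unadjusted p under 0.05, and the interaction none, with 8, while edgeR called 0% of all genes in both. Of 15452 genes 137 had an unadjusted p under 0.05 for the diet in ob/ob muscle and 1840 for the interaction.

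In the hippocampus and hypothalamus few members differed. On the high-fat diet Ifit1 was the 1 member of 28 called in hippocampus, at 1.90, 1.88 and 2.07 CPM in ob/ob HFD mice and 3.57, 4.62 and 3.34 CPM in WT HFD mice (-0.98 ± 0.21, edgeR adjusted p = 0.0485), where 0.911% of all genes were lower and 0.648% higher. The groups did not overlap, but the call was lost without any 1 mouse except ob/ob ND mouse 2 (0.0516 to 0.199). In hypothalamus no member of 28 was called on the high-fat diet by edgeR or DESeq2, with 4 unadjusted p under 0.05, where 1.28% of all genes were lower and 0.853% higher. There 1 member was higher and 1 lower without WT ND mouse 1. An unadjusted p under 0.05 was found there for 3014 of 16537 genes. Neither tool called a member in either region on the normal diet, with 3 unadjusted p under 0.05 in hippocampus and 6 in hypothalamus. Over all genes 3475 of 16361 had an unadjusted p under 0.05 in hippocampus and 3649 of 16537 in hypothalamus. Of all genes edgeR called 1.85% lower and 1.63% higher in hippocampus, and 2.98% lower and 2.32% higher in hypothalamus. The 3 transcription factors had log2 fold changes of -0.47 ± 0.36 (Irf7), 0.06 ± 0.17 (Irf9) and -0.05 ± 0.11 (Stat2) in hippocampus and 0.14 ± 0.36, -0.41 ± 0.18 and -0.32 ± 0.11 in hypothalamus, none called. In hypothalamus 1 member was called without ob/ob ND mouse 1 or without WT ND mouse 1. The diet called no member by edgeR or DESeq2 in either genotype and either region, with 0 to 2 unadjusted p under 0.05, and 0% of all genes, and neither did the interaction. Of all genes 328 to 669 had an unadjusted p under 0.05 in these diet comparisons.

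The genotype difference was also tested for being unlike between the 7 tissues, with 84 libraries in 1 fit. On the normal diet it differed for 29 of 35 members, where it did so for 61.6% of 20057 genes. The 5 smallest p-values belonged to Psmb8 (edgeR adjusted p = 8e-09), Parp9 (8.4e-08), Ifit2 (9.86e-08), Ifitm3 (1.91e-07) and Tap1 (9.97e-07). Their folds went in both directions: Psmb8 was -1.32 ± 0.21 in aorta and -0.90 ± 0.13 in heart, but 0.42 ± 0.11 in fat and 1.30 ± 0.36 in muscle. On the high-fat diet it differed for 9 of 35 members, where it did so for 22.1% of genes, led by Tap1 (0.00014), Ifit3 (0.000758), Cmpk2 (0.00176), Ifit2 (0.00231) and Dhx58 (0.0025). Without ob/ob HFD mouse 1 the count was 18 members, while over all genes it rose from 4424 of 20057 to 6733 of 20450. Ifit3 on the high-fat diet was -2.16 ± 0.23 in liver, -0.47 ± 0.22 in heart, -0.66 ± 0.29 in aorta, -0.18 ± 0.38 in fat and -0.06 ± 0.30 in muscle, and passed the test in liver.

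Across tissues, 9 of 35 members were lower in ob/ob mice in at least 3 tissues on the high-fat diet, where 1.41% of the 15695 genes tested in at least 3 tissues were. They were Irf9, Isg15, Oas1a, Oas2, Ifi44, Ifitm3, Xaf1, Trim30a and Cmpk2. Isg15 was lower in 4 tissues, with a log2 fold change of -2.09 ± 0.24 in liver, -1.23 ± 0.20 in heart, -1.20 ± 0.38 in aorta and -0.99 ± 0.29 in fat. A partly different list of 9 was lower in at least 3 tissues on the normal diet, where 6.81% of all genes were: Irf9, Isg15, Oas2, Bst2, Rtp4, Ifi44, Ifitm3, Xaf1 and Cmpk2. Irf9 and Ifitm3 were lower in 4, namely liver, heart, aorta and fat. The log2 fold change of Ifitm3 on the normal diet was -0.71 ± 0.13 in liver, -0.38 ± 0.11 in heart, -1.26 ± 0.32 in aorta and -1.03 ± 0.12 in fat. The size of the aorta value leaned on WT ND mouse 2. Ifitm3 was at 65.3, 183 and 63.9 CPM in WT ND aortas and 47.3, 40.5 and 42.6 CPM in ob/ob ND aortas, without overlap. For Irf9, Ifi44 and Cmpk2 the aorta call on the normal diet was lost without that mouse. Oas2 was also highest in that mouse among the WT ND aortas.

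The interferons themselves were at the limit of detection. The 9 type I ligand genes had 18 counts over all 84 libraries, never more than 2 in 1 library, and Ifng, the type II interferon, had 58, never more than 7. Of the receptors and kinases tested in ob/ob mice on the high-fat diet, 2 of 8 were lower and 1 higher in liver, where 9.85% of all genes were lower and 8.61% higher. In heart 2 of 9 were lower and none higher, where 8.36% and 8.82% were. Tyk2 was lower in ob/ob livers on the high-fat diet (-0.50 ± 0.13, edgeR adjusted p = 0.018) and on the normal diet (-0.89 ± 0.13, adjusted p = 0.000224).

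A list of 35 further interferon-induced genes, none of them a member, was counted beside the members. In ob/ob livers on the high-fat diet 14 of 35 were lower and none higher, where 9.85% of all genes were lower and 8.61% higher. In WT livers 18 were higher and 1 lower on the high-fat diet, where 12% were higher and 9.87% lower. In heart 13 of 31 were lower and 1 higher in ob/ob mice on the high-fat diet, where 8.36% of all genes were lower and 8.82% higher. There were 11 lower and 1 higher on the normal diet, where 6.48% were lower and 6.26% higher. In aorta 16 of 34 were lower and 3 higher on the normal diet, where 15.9% were called each way, and in muscle 17 of 31 were higher and 1 lower, where 26.6% were higher and 18.3% lower. Apol9a, an apolipoprotein L, was lower in ob/ob HFD than in WT HFD livers (-1.85 ± 0.14, edgeR adjusted p = 7.19e-06). It rose with the diet in WT livers (1.82 ± 0.14, adjusted p = 6.28e-06) and, unlike any member by the test, in ob/ob livers (0.83 ± 0.15, adjusted p = 0.0215). In heart Ifi203, of the DNA-binding p200 family, was lower in ob/ob mice on the high-fat diet (-1.13 ± 0.13, adjusted p = 4.33e-05) and on the normal diet (-1.42 ± 0.14, adjusted p = 1.96e-05). Of 9 class I presentation genes 6 were lower in ob/ob hearts on the high-fat diet and 3 on the normal diet, against the same heart shares over all genes, among them B2m, the class I light chain (-0.83 ± 0.14 on the high-fat diet, adjusted p = 0.00119). In muscle on the normal diet 6 of the 9 were higher and none lower, against the muscle shares above.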

How the data were processed

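Libraries were made from mRNA with an Illumina TruSeq kit and sequenced on a NextSeq, per the labels' protocols. That protocol text names hearts for all samples, and the tissue was taken from each sample's own label. The submitters' processing notes name Trimmomatic 0.36, HISAT2 2.0.5, the build GRCm38 and featureCounts 1.5.0-p2, while the counter is version 1.5.1 per the file headers. The deposited values are whole read counts per gene, not normalized, one column for each of 84 libraries. The settings for strand and for reads with several matches are not given in the sources used here. In 6 titles HFD is spelled HDF, and these were read as HFD. Gene symbols came from a reference table, which left 345 genes of 49671 without one.

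Each tissue was fitted by itself in edgeR 4.0.16 (R 4.3.3) with 4 group means over 12 libraries, TMM scaling and edgeR's expression filter (minimum count 10, minimum total 15). Quasi-likelihood tests were adjusted by Benjamini-Hochberg over all genes tested, with a threshold of 0.05. Log2 fold changes carry a standard error taken from the F statistic. The test between tissues used all 84 libraries and 28 group means, and the same mouse gave 7 of them. Levels compared between tissues used scaling over all 84 libraries and the exon length in the file. Library totals of 10499528 to 17040790 counts leave the lowest members, such as Oas3, on few reads. Promoter windows are from RefSeq.

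The members and all gene and marker lists were chosen with earlier results of these data known. Named with values were Irf7, Irf9 and Stat2, the 3 called members with the smallest p and those with the largest and smallest fold in each tissue and comparison, the 2 with the smallest p for the interaction and the 5 with the smallest p between tissues, and up to 2 genes of each other list. Isg15, and levels of members in groups other than those that named them, were chosen after their values were seen. Alternatives were DESeq2 1.42.0, edgeR with the size factors of DESeq2, all genes kept in place of the filter, a replicate block by mouse number, every mouse omitted in turn, and limma 3.58.1 with voom and the mouse as a random block for the test between tissues.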

Additional observations from a re-analysis of the deposited data

Results flagged for a closer look

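The diet difference was unlike in the 2 genotypes for 19 members in liver and 4 in epididymal fat, by the edgeR interaction test. Over all genes the interaction was called below 0 for 3.96% and above 0 for 2.2% in liver, and for 20.7% and 19.4% in fat, so that the count in fat is under the share of all genes. In liver the interaction was -2.03 for Oasl1, the synthetase-like member with the smallest p, and -2.43 for Rsad2 (viperin), both on the log2 scale. In fat it was -1.53 for Oas1a, a 2-5A synthetase, and -0.60 for Psmb8, an immunoproteasome subunit. In all 4 cases the ob/ob diet difference lay below the WT one.

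The genotype difference was unlike between the 7 tissues for 9 members on the high-fat diet and 29 members on the normal diet, of 35. Over all genes it was so for 22.1% on the high-fat diet, a share near that of the members, and for 61.6% on the normal diet. On the high-fat diet the edgeR adjusted p was 0.00014 for Tap1, 0.000758 for Ifit3, 0.00176 for Cmpk2, 0.00231 for Ifit2 and 0.0025 for Dhx58. On the normal diet it was 8e-09 for Psmb8, 8.4e-08 for Parp9, 9.86e-08 for Ifit2, 1.91e-07 for Ifitm3 and 9.97e-07 for Tap1. The same mice gave all 7 tissues, and this test treats their libraries as independent. With the mouse as a random block in limma the counts were 12 members on the high-fat diet and 26 on the normal diet. Of all 20057 genes limma called 4549 on the high-fat diet and 12373 on the normal diet.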

How the results depend on the processing

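No alternative turned the direction of any of 217 calls of a member in a tissue and comparison, over 3472 alternative values. Of these calls 6 were lost with DESeq2, 1 with DESeq2 size factors in edgeR, 6 with no filter on low counts and 14 with the replicate block, and 349 values with 1 mouse left out lost the threshold. With no filter the number of members called for the genotype on the high-fat diet became 0 in hippocampus and 1 in hypothalamus. Of all genes 49 were higher and 63 lower in hippocampus (of 30150), and 402 and 467 in hypothalamus (of 30910). For the diet in WT mice it became 5 in aorta and 8 in heart. There 692 genes were higher and 1010 lower in aorta (of 28246), and 170 and 173 in heart (of 26201). For the diet in ob/ob mice it became 1 in aorta, 7 in heart and 6 in liver. There 48 genes were higher and 20 lower in aorta, 222 and 138 in heart, and 595 and 381 in liver (of 24740). For the interaction in aorta it became 4, with 520 genes higher and 240 lower. DESeq2 called 3 members for the diet in WT aorta and 4 in WT muscle. Of all genes it called 574 higher and 579 lower in WT aorta (of 15080), and 767 and 62 in WT muscle (of 14864). It called 1 member in ob/ob aorta, 1 in ob/ob heart and 3 in ob/ob liver, and 1 for the interaction in aorta. Its calls over all genes in these comparisons are given above. Mouse numbers shared between groups did not pair the libraries, since 2 to 6 of 18 same-numbered pairs of a tissue had deviations correlated over 0.1. With the replicate block the number was 0 for the genotype on the high-fat diet in hippocampus, 4 for the diet in WT heart and 1 in ob/ob heart. Of all genes 7 were higher and 5 lower in hippocampus (of 16361). In heart 27 were higher and 24 lower in WT mice, and 5 and 4 in ob/ob mice (of 13673). With 1 mouse left out the number for the genotype on the high-fat diet ranged from 1 to 6 in aorta, 2 to 10 in fat, 15 to 23 in heart, 0 to 1 in hippocampus, 0 to 2 in hypothalamus, 31 to 34 in liver and 0 to 6 in muscle. On the normal diet it was 9 to 22 in aorta, 9 to 21 in fat, 8 to 17 in heart, 0 to 1 in hypothalamus, 9 to 14 in liver and 8 to 18 in muscle. For the diet in WT mice it was 0 to 5 in aorta, 8 to 20 in fat, 0 to 3 in heart, 29 to 33 in liver and 0 to 16 in muscle, and in ob/ob mice 0 to 1 in aorta, 0 to 1 in heart and 0 to 3 in liver. For the interaction it was 0 to 3 in aorta, 2 to 8 in fat and 13 to 20 in liver. Between tissues it was 6 to 18 on the high-fat diet and 24 to 31 on the normal diet. All genes called there ranged from 1973 of 20456 to 6733 of 20450 on the high-fat diet. On the normal diet they ranged from 10244 of 20443 to 12590 of 20450. Between tissues only mouse 1 of each group was left out, and leaving out the others was not run. For the counts within a tissue, the shares of all genes with 1 mouse left out are not given here. The cause of these changes was not tested. With 3 mice a group and low counts for members such as Oas3 and Mx1, small differences were not detectable at this depth.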

Other observations

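The mouse with the highest mean level of the members in its group was not the same in every tissue. Among the ob/ob HFD mice, mouse 1 was lowest of the 3 in 4 of 7 tissues and highest in 0. Among the WT ND mice, mouse 2 was highest of the 3 in 5 of 7 tissues and lowest in 0. In liver the members' mean log2 CPM was 2.90, 3.28 and 3.0 in ob/ob HFD mice, 3.13, 2.93 and 2.89 in ob/ob ND mice, 4.09, 4.05 and 4.42 in WT HFD mice and 2.91, 3.0 and 2.81 in WT ND mice.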
